A study of Homo sapiens with 12 samples.

Results

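The circadian clock genes and the clock-linked repressor gene BHLHE40 were followed by RNA sequencing in 2 human diffuse large B-cell lymphoma lines grown with or without selinexor, a small-molecule inhibitor of the nuclear export receptor XPO1. The set holds 10 of the 58302 genes in the deposited table: BHLHE40, BHLHE41, PER1, PER2, PER3, CRY1, CRY2, ARNTL, CLOCK and NR1D2, taken by symbol. It was chosen because BHLHE40 moved in opposite directions in the lines, so the responses of BHLHE40 are given as a description with no test, and the same holds for its line difference, which rests on the same libraries. The other 9 genes were taken for their place in the clock pathway, with earlier results of these data known.

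The groups were OCI-LY3 cells grown with selinexor, untreated OCI-LY3 cells, SU-DHL6 cells grown with selinexor and untreated SU-DHL6 cells, with 3 libraries each. Both are established lymphoma lines: OCI-LY3 carries the label of the activated B-cell type and SU-DHL6 that of the germinal centre B-cell type. Their genotype is given as wild type, and each type is represented by 1 line. The protocols name doses of 300 and 100 nM and times of 24 and 48 h without tying either to a library, so line, dose and time cannot be told apart. The labels give no hour of harvest, and p-values measure the spread between libraries that the study calls biological triplicates without describing the cultures.

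In the mammalian clock, CLOCK and ARNTL (also called BMAL1) form a heterodimer that binds E-box sequences and activates PER and CRY genes, whose proteins then inhibit the heterodimer. The nuclear receptors NR1D1 and NR1D2 repress ARNTL from response elements of their own, and RORA acts on the same elements as an activator. BHLHE40 and BHLHE41, also called DEC1 and DEC2, are E-box-binding repressors that are themselves clock output, and BHLHE40 also answers to hypoxia and to immune stimuli, with roles in lymphocyte activation.

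Library totals ranged from 14210200 to 16405842 counts. Replicates correlated at 0.981 to 0.986 over log2 CPM, which are counts relative to the scaled library total. On the fourth principal component, which held 1.21% of the variance, untreated SU-DHL6 library 1 (score -41.5) and treated OCI-LY3 library 3 (-25.0) stood apart from their replicates. Of the 7 B-cell markers, 7 reached a mean of 1 CPM in SU-DHL6 and 6 in OCI-LY3. The summed level of 6 activated B-cell markers was 2946 to 3047 CPM in treated and 3738 to 3862 CPM in untreated OCI-LY3, against 490.1 to 520 CPM in treated and 788 to 894 CPM in untreated SU-DHL6. In OCI-LY3, the summed level of 5 T-cell markers was 3.16 to 4.89 CPM in treated and 0.0702 to 0.627 CPM in untreated libraries, with CD2, CD3D and CD3G at 0. That of 5 monocyte markers was 19.3 to 21.8 CPM in treated and 29.4 to 32.0 CPM in untreated libraries. Of these markers CD14 and LYZ were at 0, and ITGAM alone was at 14.7 to 30.9 CPM. That of 5 stromal markers was 28.4 to 38.9 CPM in treated and 24.6 to 25.8 CPM in untreated libraries. Here COL3A1 was at 0, and COL1A1 alone was at 22.1 to 38.0 CPM. In SU-DHL6 none of these 3 sums exceeded 0.720 CPM, and the part of these levels in the results below was not tested.

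All 10 genes matched a promoter window in the RefSeq table on GRCh38.p14, which covers 250 bases before and 50 bases after each listed start, and ARNTL matched under its current symbol BMAL1. The E-box letters CACGTG, which read the same on both strands, were present in 4 of 15 windows of these genes (26.7%), against 7.26% of 35116 windows of all genes. With the second form CATGTG added, searched on both strands, the counts were 6 of 15 windows and 17.6% of all windows. Those with CACGTG belonged to BHLHE40, BHLHE41, PER1 and NR1D2. Windows of 3 genes are printed, since BHLHE40, PER2 and NR1D2 show the 3 kinds of response described below: opposite values in the lines, a fall in OCI-LY3, and a rise in both. Capitals mark CACGTG, and the match is a description of the letters alone. The shares of windows were not compared by a test. The set was taken from a pathway known for E-box control, some genes have more than 1 window, and the PER3 windows overlap.
BHLHE40, chr3:4979187-4979486, plus strand: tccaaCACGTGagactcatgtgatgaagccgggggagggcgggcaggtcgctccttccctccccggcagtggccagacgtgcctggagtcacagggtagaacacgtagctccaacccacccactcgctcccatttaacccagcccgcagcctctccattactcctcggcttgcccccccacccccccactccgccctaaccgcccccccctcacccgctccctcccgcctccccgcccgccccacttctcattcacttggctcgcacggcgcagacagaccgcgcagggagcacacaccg
PER2, chr2:238288561-238288860, minus strand: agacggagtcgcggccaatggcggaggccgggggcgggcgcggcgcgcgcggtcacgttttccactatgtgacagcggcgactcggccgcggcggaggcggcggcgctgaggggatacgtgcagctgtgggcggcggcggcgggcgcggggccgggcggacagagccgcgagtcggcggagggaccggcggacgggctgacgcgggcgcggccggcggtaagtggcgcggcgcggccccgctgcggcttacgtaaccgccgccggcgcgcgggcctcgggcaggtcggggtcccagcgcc
NR1D2, upstream start, chr3:23945036-23945335, plus strand: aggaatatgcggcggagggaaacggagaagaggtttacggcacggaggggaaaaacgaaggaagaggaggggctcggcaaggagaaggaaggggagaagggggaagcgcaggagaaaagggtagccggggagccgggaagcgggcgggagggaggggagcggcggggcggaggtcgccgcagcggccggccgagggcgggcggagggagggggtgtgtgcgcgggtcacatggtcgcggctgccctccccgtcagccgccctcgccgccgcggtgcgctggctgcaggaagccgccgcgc
NR1D2, downstream start, chr3:23945871-23946170, plus strand: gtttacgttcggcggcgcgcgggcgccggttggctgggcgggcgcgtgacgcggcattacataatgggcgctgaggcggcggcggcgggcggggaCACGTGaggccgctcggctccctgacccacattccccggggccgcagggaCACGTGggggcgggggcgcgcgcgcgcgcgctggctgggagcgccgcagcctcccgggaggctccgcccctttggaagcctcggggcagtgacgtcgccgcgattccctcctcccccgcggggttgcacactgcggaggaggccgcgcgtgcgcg
In the BHLHE40 window the motif began 245 bases before the start. In the downstream NR1D2 window it occurred at 155 and at 105 bases before the start, while the upstream NR1D2 window and the PER2 window held no CACGTG. The PER2 window held CACGTT, a variant E-box form, on the strand printed, and 5.34% of all windows held CACGTT on either strand.

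BHLHE40 (ENSG00000134107, chromosome 3, 4979116 to 4985323 on GRCh38, plus strand) had 198, 201 and 197 counts in treated OCI-LY3, against 1357, 1243 and 1240 counts in untreated OCI-LY3. After scaling these were 15.4, 15.1 and 14.9 CPM in treated and 94.5, 87.3 and 91.1 CPM in untreated libraries, where library totals were scaled by TMM (trimmed mean of M values) factors. The 3 treated libraries lay close together and far below every untreated one, a log2 fold change of -2.59 ± 0.11 (standard error, SE). In bulk RNA, fewer cells that express a gene and less RNA of it per cell cannot be told apart. In SU-DHL6, BHLHE40 had 1404, 1494 and 1522 counts in treated and 510, 691 and 606 counts in untreated libraries, or 77.7, 80.8 and 81.4 CPM in treated and 34.6, 42.9 and 43.8 CPM in untreated libraries. Here every treated library lay above every untreated one, with a log2 fold change of 0.98 ± 0.10 (SE).

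The response in OCI-LY3 minus that in SU-DHL6 was -3.57 ± 0.15 (SE) on the log2 scale. With the most negative first, it had rank 175 among all 16474 genes tested. Among the 9268 genes whose log2 CPM averaged 3 or more it had rank 5. These values chose the set and carry no test. Across all 16474 genes tested, 555 genes (3.37%) fell in OCI-LY3 and rose in SU-DHL6, and 729 (4.43%) did the reverse. Untreated SU-DHL6 library 1 was the lowest of its group for BHLHE40, and without it the log2 fold change in SU-DHL6 was 0.88. Without treated OCI-LY3 library 3, that in OCI-LY3 was -2.57.

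Untreated OCI-LY3 held more BHLHE40 transcript than untreated SU-DHL6, at 91.0 ± 3.63 and 40.4 ± 5.08 CPM (SD, n = 3 each), with no overlap. With selinexor the order of the lines was turned round, at 15.1 ± 0.25 CPM in OCI-LY3 and 80.0 ± 1.94 CPM in SU-DHL6. The 2 highest groups, treated SU-DHL6 (77.7 to 81.4 CPM) and untreated OCI-LY3 (87.3 to 94.5 CPM), did not overlap with TMM factors, but their order depended on the scaling. Relative to total counts, treated SU-DHL6 was at 90.6 to 100.2 CPM and untreated OCI-LY3 at 82.3 to 90.8 CPM, ranges that overlap. Deposited FPKM values, which follow total counts, were 17.7 to 19.6 in treated SU-DHL6 and 16.1 to 17.8 in untreated OCI-LY3. The other neighbours in the order did not overlap on either scale.

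**Figure D1:**
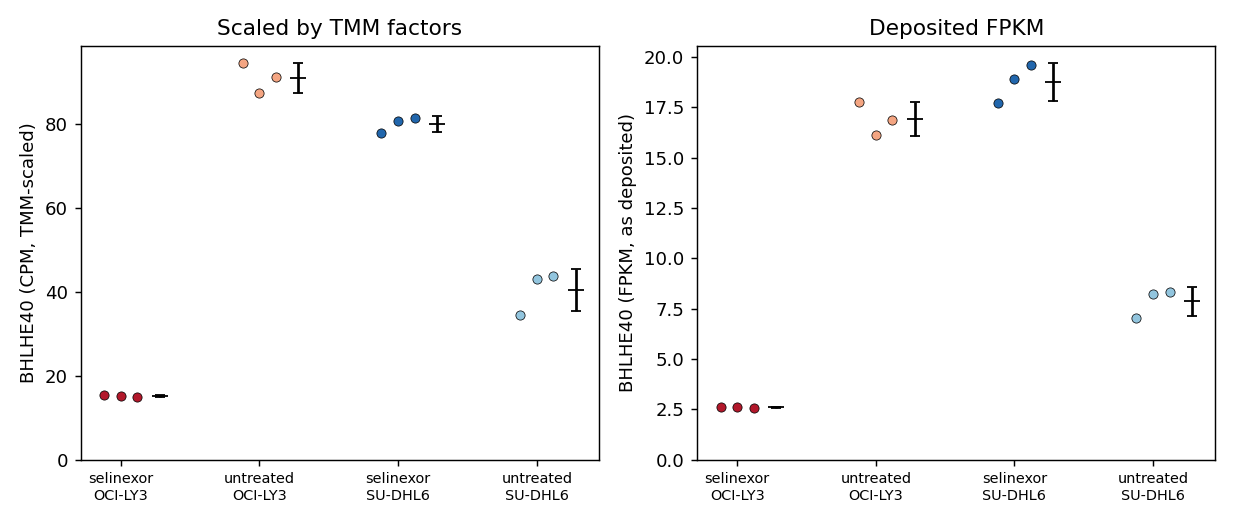
BHLHE40 in each library (points), with the group mean and SD (bars, n = 3), as TMM-scaled CPM (left) and deposited FPKM (right). Treated OCI-LY3 libraries sit at 14.9 to 15.4 CPM, below all others, and treated SU-DHL6 libraries at 77.7 to 81.4 CPM, above the untreated SU-DHL6 libraries.

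Among the 7 other clock genes tested, 3 fell and 1 rose in treated OCI-LY3 at a Benjamini-Hochberg adjusted p under 0.05 by edgeR's quasi-likelihood test over the whole table, where 44.4% of all genes were called, 22.2% higher and 22.2% lower. The groups did not overlap for 57.5% of all genes in OCI-LY3 and 51.1% in SU-DHL6. In treated SU-DHL6, NR1D2 rose and none fell among the 6 with counts there (of all genes 43.2% were called, 20.4% higher and 22.8% lower), and at least 1 of PER1, PER3 and CRY2 was added under 3 of the 20 alternative settings. Because BHLHE40 in these same contrasts chose the set, nothing is read from these counts. The median log2 fold change over all genes, 0.00 in each line, was moved by scaling to total counts, to -0.09 in OCI-LY3 and 0.27 in SU-DHL6, and 69.7% of called genes were then higher in SU-DHL6, against 47.2% with TMM factors. With total counts PER1 (0.49), CRY2 (0.42) and PER3 (0.84) also passed in SU-DHL6 (edgeR adjusted p = 0.00991, 0.00684 and 0.0243). The shift of the median of all genes by 0.27 is part of each of these values.

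PER2 (ENSG00000132326, chromosome 2, 238244038 to 238290102, minus strand), which encodes a period repressor of the CLOCK-ARNTL heterodimer, was at 10.0, 8.80 and 8.15 CPM in treated and 22.5, 19.9 and 21.1 CPM in untreated OCI-LY3. Every treated library lay below every untreated one. PER2 fell by 1.23 ± 0.12 (SE) on the log2 scale (edgeR adjusted p = 1.5e-06) and kept this call when any 1 library was left out. In SU-DHL6 it was at 30.6, 33.5 and 34.7 CPM in treated and 32.6, 35.4 and 34.6 CPM in untreated libraries, which overlapped. The log2 fold change there was -0.06 ± 0.11 (edgeR adjusted p = 0.726), and it turned to 0.21 with total counts, without a call. The responses differed by -1.18 ± 0.16 (OCI-LY3 minus SU-DHL6, edgeR adjusted p = 7.0e-05), in a test that called 36.9% of all genes. Of those called, 53.9% had a higher response in OCI-LY3 with TMM factors and 27.1% with total counts.

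PER3 (ENSG00000049246, chromosome 1, 7784320 to 7845177, plus strand), a further period gene, had 1, 9 and 7 counts in treated and 20, 17 and 15 counts in untreated OCI-LY3. In SU-DHL6 it had 141, 127 and 174 counts in treated and 94, 70 and 74 counts in untreated libraries. PER3 fell in OCI-LY3, with a log2 fold change of -1.498 ± 0.43 (SE, edgeR adjusted p = 0.0117). Leaving out 1 library at a time gave -1.98 to -1.02. In SU-DHL6 the log2 fold change was 0.58 ± 0.27 (edgeR adjusted p = 0.103), with treated libraries at 6.86 to 9.30 CPM and untreated ones at 4.35 to 6.38 CPM, which did not overlap. This value passed the test when SU-DHL6 was fitted alone (0.59, edgeR adjusted p = 0.0414) and without treated OCI-LY3 library 1 (0.58, 0.0334). The responses differed by -2.08 ± 0.51 (edgeR adjusted p = 0.00567).

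PER1 (ENSG00000179094, chromosome 17, 8140472 to 8156506, minus strand), the period gene known for rapid induction by glucocorticoid and cAMP signals, was at 62.3, 55.6 and 40.8 CPM in treated and 47.8, 47.7 and 47.7 CPM in untreated OCI-LY3. The treated libraries lay on both sides of the untreated ones (log2 fold change 0.15 ± 0.14 SE, edgeR adjusted p = 0.418). In SU-DHL6, PER1 was at 25.8, 28.5 and 26.3 CPM in treated and 19.8, 25.0 and 24.5 CPM in untreated libraries, a log2 fold change of 0.22 ± 0.14 (edgeR adjusted p = 0.242). Every treated SU-DHL6 library lay above every untreated one, and 51.1% of all genes did not overlap in this line. The difference of the PER1 responses was -0.07 ± 0.20 (edgeR adjusted p = 0.849).

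CRY2 (ENSG00000121671, chromosome 11, 45847118 to 45883248, plus strand) encodes a cryptochrome, the partner of period proteins in repression. It was at 55.7, 55.0 and 47.9 CPM in treated and 50.01, 43.0 and 48.1 CPM in untreated OCI-LY3, a log2 fold change of 0.17 ± 0.11 (SE, edgeR adjusted p = 0.214) between overlapping groups. In SU-DHL6 it was at 31.8, 33.1 and 37.3 CPM in treated and 29.3, 31.4 and 31.2 CPM in untreated libraries, a log2 fold change of 0.15 ± 0.11 (edgeR adjusted p = 0.267). These SU-DHL6 groups did not overlap, as for 51.1% of all genes. The CRY2 responses differed by 0.02 ± 0.15 (edgeR adjusted p = 0.985). CRY1 (ENSG00000008405, chromosome 12, 106991364 to 107093829, minus strand), the other cryptochrome gene, was listed at 0 counts in all 12 libraries, which allows up to 0.183 to 0.211 CPM per library for counting error only. Whether its reads were lost in the authors' counting was not tested.

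Of the activators, CLOCK (ENSG00000134852, chromosome 4, 55427903 to 55547138, minus strand) was at 4.43, 7.07 and 4.45 CPM in treated and 8.01, 8.78 and 10.6 CPM in untreated OCI-LY3. The highest treated library lay just below the lowest untreated one. CLOCK fell by 0.78 ± 0.27 (SE) on the log2 scale (edgeR adjusted p = 0.0306), and the call was lost without untreated OCI-LY3 library 2 or 3 or treated OCI-LY3 library 1 or 3 (-0.80, -0.66, -0.66 and -0.66, edgeR adjusted p = 0.0562, 0.106, 0.107 and 0.104). In SU-DHL6, CLOCK was at 4.49, 7.30 and 4.81 CPM in treated and 6.38, 3.98 and 3.47 CPM in untreated libraries, which overlapped (0.26 ± 0.27, edgeR adjusted p = 0.467). The difference of -1.04 ± 0.38 (edgeR adjusted p = 0.0464) was lost when any of 9 libraries was left out, with edgeR adjusted p-values of 0.0105 to 0.133 over all 12 omissions. CLOCK overlaps TMEM165 on the opposite strand, which is expressed at a mean of 52.2 CPM and changed in neither line by the test, with log2 fold changes of 0.30 ± 0.14 in OCI-LY3 and -0.12 ± 0.14 in SU-DHL6 (edgeR adjusted p = 0.0860 and 0.511). ARNTL (ENSG00000133794, chromosome 11, 13276652 to 13387266, plus strand), the partner of CLOCK, had at most 9 counts in any library and failed the filter, with 2, 0 and 0 counts in treated and 1, 0 and 0 counts in untreated OCI-LY3, and 2, 9 and 3 counts in treated and 5, 5 and 2 counts in untreated SU-DHL6.

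NR1D2 (ENSG00000174738, chromosome 3, 23945260 to 23980618, plus strand), which encodes the repressor REV-ERB beta, was the clock gene that rose in both lines. It was at 24.9, 24.1 and 27.7 CPM in treated and 13.03, 13.2 and 14.6 CPM in untreated OCI-LY3, and at 26.9, 27.6 and 27.0 CPM in treated and 16.8, 11.1 and 13.8 CPM in untreated SU-DHL6. In each line all treated libraries lay above all untreated ones. The log2 fold changes were 0.91 ± 0.14 (SE) in OCI-LY3 and 0.96 ± 0.14 in SU-DHL6 (edgeR adjusted p = 0.000140 and 8.6e-05), and both calls held without any 1 library. The responses differed by -0.05 ± 0.20 (edgeR adjusted p = 0.885). NR1D2 overlaps NKIRAS1 on the opposite strand, a gene at a mean of 3.63 CPM that also rose in both lines, by 0.64 ± 0.20 and 0.64 ± 0.20 (edgeR adjusted p = 0.0162 in OCI-LY3 and 0.0195 in SU-DHL6), calls that were each lost in 3 of 20 alternative settings. The strand setting of the counting is not given in the sources used here, so reads of the shared stretch cannot be told apart.

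BHLHE41 (ENSG00000123095, chromosome 12, 26120026 to 26125127, minus strand), the paralogue of BHLHE40, had 32, 18 and 29 counts in treated and 24, 18 and 20 counts in untreated OCI-LY3, and 0 counts in all 6 SU-DHL6 libraries. Its log2 fold change in OCI-LY3 was 0.45 ± 0.35 (SE, edgeR adjusted p = 0.331), between overlapping groups.

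**Figure D2:**
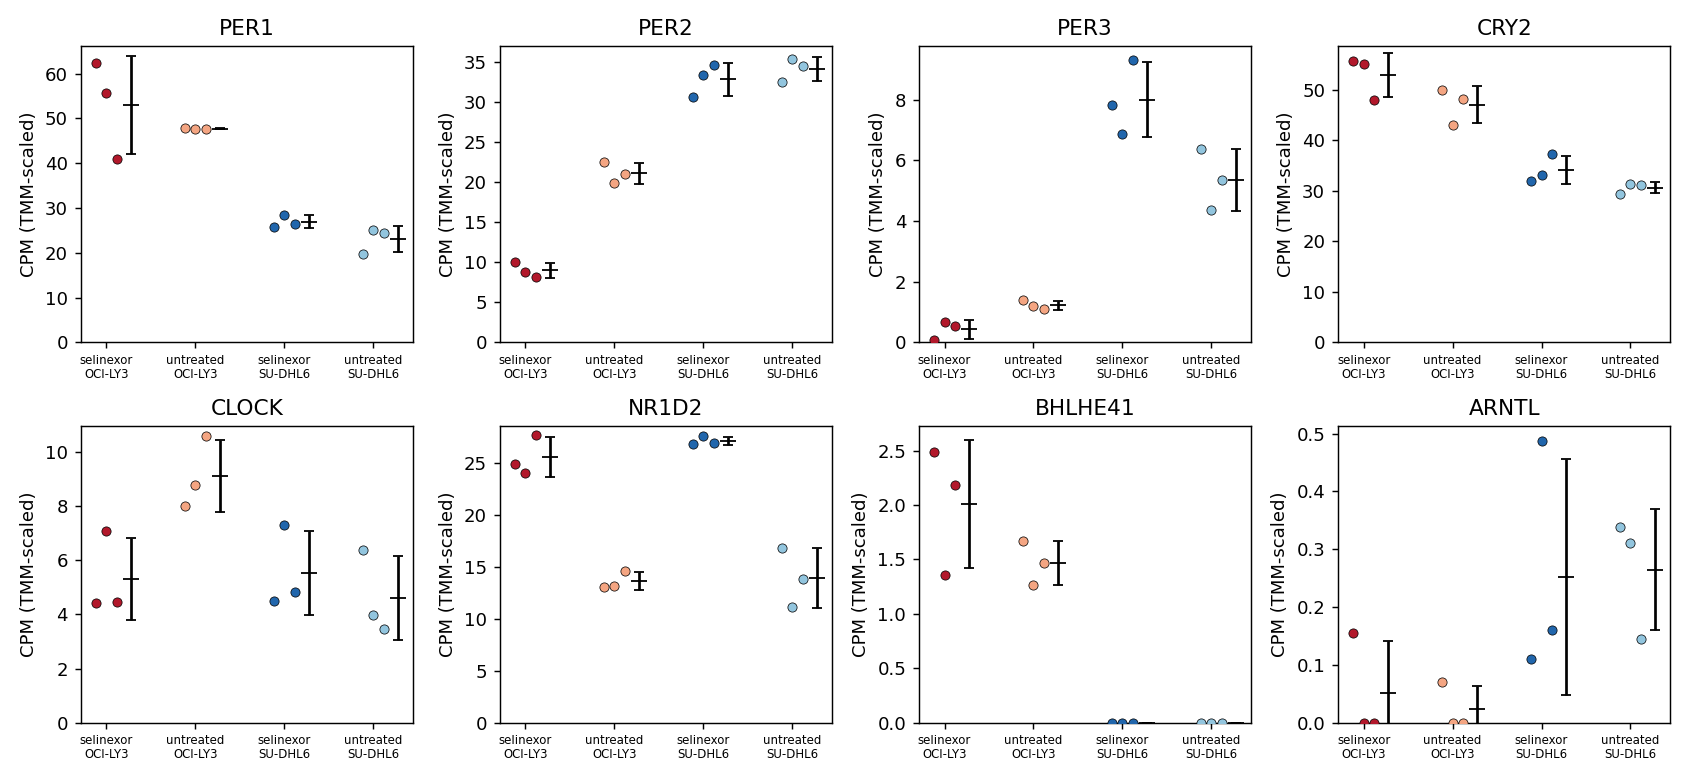
TMM-scaled CPM of the other clock genes in each library (points), with group mean and SD (bars, n = 3); CRY1 is left out because it was listed at 0 throughout, and each panel has its own scale. PER2 is low in treated OCI-LY3 (8.15 to 10.0 CPM), NR1D2 is high in both treated groups, and BHLHE41 is at 0 in SU-DHL6.

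**Figure D3:**
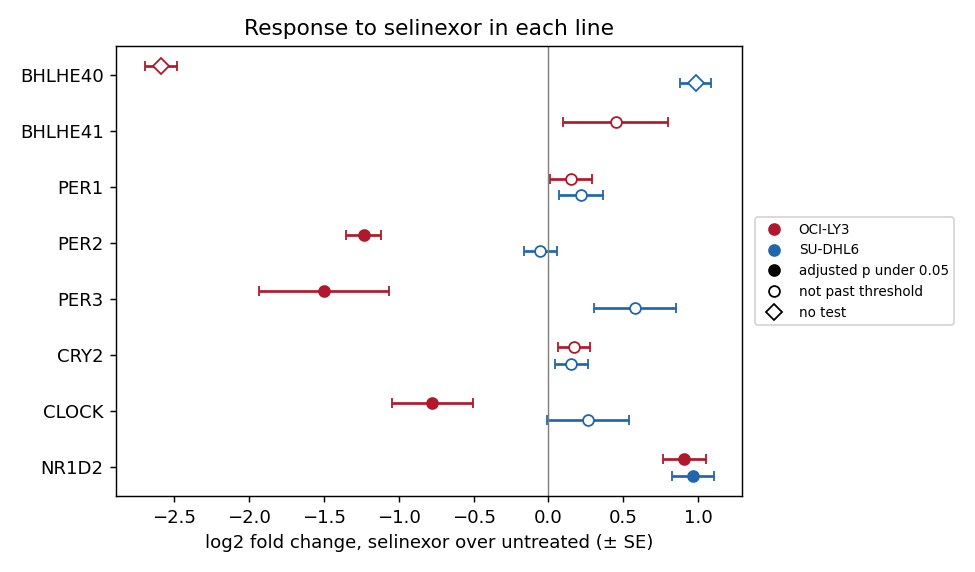
Log2 fold change of selinexor over untreated cells for the 8 tested clock genes in each line, with SE from edgeR; filled points passed an adjusted p of 0.05, open points did not, and diamonds (BHLHE40) carry no test. BHLHE40 lies at -2.59 in OCI-LY3 and 0.98 in SU-DHL6, and NR1D2 at 0.91 and 0.96.

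The untreated lines differed in 5 of the 6 other clock genes with counts in both lines, 3 higher and 2 lower in OCI-LY3, in a contrast that called 67.3% of all genes, 33.6% higher and 33.7% lower, and in which the groups did not overlap for 70.9%. This contrast uses the same untreated libraries as the responses and none of the treated ones. PER1 was higher in untreated OCI-LY3 (47.7 ± 0.0615 CPM) than in untreated SU-DHL6 (23.1 ± 2.88 CPM, SD, n = 3 each), a log2 difference of 1.05 ± 0.14 (SE, edgeR adjusted p = 1.6e-05). CLOCK (0.98 ± 0.27, edgeR adjusted p = 0.00518) and CRY2 (0.62 ± 0.11, 0.000139) were also higher in OCI-LY3. TMEM165, which overlaps CLOCK on the opposite strand, was higher in untreated OCI-LY3 too (0.45 ± 0.14, edgeR adjusted p = 0.0102). The counts of CLOCK thus carry the same limit on strand as those of NR1D2. BHLHE41 was at least 7.26-fold higher in untreated OCI-LY3 than in untreated SU-DHL6, taking 3 counts per SU-DHL6 library as the floor, and is given no test since it passed the filter through OCI-LY3. PER2 (-0.69 ± 0.11, edgeR adjusted p = 6.8e-05) and PER3 (-2.11 ± 0.32, 4.0e-05) were lower in OCI-LY3. NR1D2, at 13.6 ± 0.88 CPM in untreated OCI-LY3 and 13.9 ± 2.85 CPM in untreated SU-DHL6, did not pass (-0.03 ± 0.14, edgeR adjusted p = 0.861).

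Levels of different genes were compared per length, on the deposited FPKM values (counts scaled by gene length and library total). The gene lengths behind these values were not checked against mRNA lengths, and the order of the genes depends on them. In treated OCI-LY3, PER1 and CRY2 were both at a mean of 46.4 CPM relative to total counts, yet at 3.10 and 4.36 FPKM. BHLHE40 was there at 13.3 CPM and 2.60 FPKM. In treated OCI-LY3 the highest of the 10 genes was CRY2 (4.36 ± 0.32 FPKM, SD, n = 3), followed by PER1 (3.10 ± 0.61), BHLHE40 (2.60 ± 0.02), NR1D2 (2.58 ± 0.21) and PER2 (1.08 ± 0.10). The ranges of PER1, BHLHE40 and NR1D2 overlapped there. In untreated OCI-LY3 BHLHE40 led at 16.9 ± 0.83 FPKM, ahead of CRY2 (4.20 ± 0.36), PER1 (3.03 ± 0.03), PER2 (2.75 ± 0.20) and NR1D2 (1.49 ± 0.09). In treated SU-DHL6 BHLHE40 was at 18.7 ± 0.95 FPKM, followed by PER2 (5.40 ± 0.48), CRY2 (3.84 ± 0.42), NR1D2 (3.73 ± 0.12) and PER1 (2.15 ± 0.14), with overlap between CRY2 and NR1D2. In untreated SU-DHL6 BHLHE40 was at 7.87 ± 0.73 FPKM, ahead of PER2 (4.66 ± 0.08), CRY2 (2.87 ± 0.02), NR1D2 (1.60 ± 0.38) and PER1 (1.53 ± 0.14), with overlap between the last of these. CLOCK, PER3, BHLHE41 and ARNTL stayed below 1 FPKM in every library.

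Of 8 further oscillator genes, 5 passed the filter and were tested. All 5 passed the test in OCI-LY3, where 4 fell and 1 rose, and 1 fell and 1 rose in SU-DHL6. Of all genes, 44.4% were called in OCI-LY3 (22.2% higher, 22.2% lower) and 43.2% in SU-DHL6 (20.4% higher, 22.8% lower). The list medians were -1.09 in OCI-LY3 and 0.36 in SU-DHL6, and the median of all genes was 0.00 in each line. This list and those below were chosen with earlier results of these data known, and no list was tested as a whole. NR1D1, which encodes REV-ERB alpha, the paralogue of the NR1D2 product, was at 5.20, 5.79 and 4.30 CPM in treated and 11.1, 11.7 and 9.70 CPM in untreated OCI-LY3. It was at 15.2, 16.1 and 13.9 CPM in treated and 10.6, 12.6 and 11.99 CPM in untreated SU-DHL6. Treated libraries thus lay below all untreated ones in OCI-LY3 and above all untreated ones in SU-DHL6. NR1D1 fell in OCI-LY3 by 1.09 ± 0.16 (SE) on the log2 scale (edgeR adjusted p = 7.2e-05), while its value in SU-DHL6 was 0.36 ± 0.15 (edgeR adjusted p = 0.0619, under 0.05 in 3 of 20 alternative settings), and the responses differed by -1.45 ± 0.22 (edgeR adjusted p = 0.000148). NR1D1 overlaps the thyroid hormone receptor gene THRA on the opposite strand, which fell in OCI-LY3 by 0.74 ± 0.25 (edgeR adjusted p = 0.0277), a call lost in 4 of 20 settings.

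The ARNTL paralogue gene ARNTL2 fell in OCI-LY3 (3.73, 4.06 and 2.42 CPM in treated and 17.3, 6.32 and 14.4 CPM in untreated libraries) by 1.89 ± 0.35 on the log2 scale (edgeR adjusted p = 0.000635). The untreated library 2 was well below the other untreated ones. The value of ARNTL2 in SU-DHL6 was -0.92 ± 0.36 (edgeR adjusted p = 0.0562), which passed in 6 of 20 alternative settings. RORA, the activator at REV-ERB elements, named here after its values were seen, was the fourth gene that fell there (-1.04 ± 0.36, edgeR adjusted p = 0.0309), a call lost in 5 of 20 settings. TIMELESS, which in mammals acts at replication forks as well as with clock proteins, fell in both lines, by 1.12 ± 0.10 in OCI-LY3 and 1.63 ± 0.10 in SU-DHL6 (edgeR adjusted p = 6.2e-07 and 1.7e-08). CIART, a repressor of the CLOCK-ARNTL heterodimer, rose in SU-DHL6 by 1.37 ± 0.34 (edgeR adjusted p = 0.00455). Its rise in OCI-LY3 (0.87 ± 0.32, edgeR adjusted p = 0.0419) rested on 10 to 23 counts per library and was lost in 11 of 20 alternative settings, among them leaving out any OCI-LY3 library other than treated library 3.

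Of the 4 D-box output factors, which bind an element shared with the clock-controlled repressor NFIL3, 1 rose and 1 fell in OCI-LY3, and 1 fell in SU-DHL6, against 44.4% and 43.2% of all genes called, with medians of -0.18 and, over 3 genes, -0.19. NFIL3 itself was the gene that fell in both lines, to 3.49, 3.53 and 3.17 CPM in treated OCI-LY3, against 10.2, 10.5 and 8.16 CPM in untreated OCI-LY3 (-1.499 ± 0.19 SE, edgeR adjusted p = 1.9e-05). In SU-DHL6 it fell to 6.81, 4.92 and 6.84 CPM in treated, against 11.1, 9.07 and 10.7 CPM in untreated libraries (-0.73 ± 0.17, edgeR adjusted p = 0.00387). DBP, an activator at D-boxes, rose in OCI-LY3 by 0.50 ± 0.16 (edgeR adjusted p = 0.0237), a call lost with total counts and without untreated OCI-LY3 library 2 or 3 or treated OCI-LY3 library 1 or 2 (edgeR adjusted p = 0.0540 to 0.0782). HLF, a further D-box activator, had at most 4 counts in any SU-DHL6 library and is given no fold change there.

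**Figure D4:**
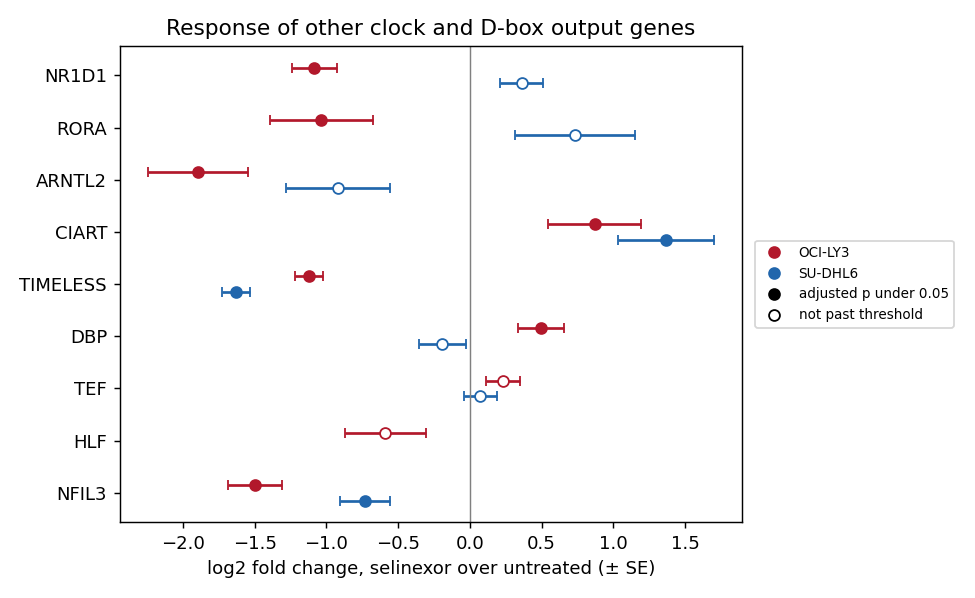
Log2 fold change of selinexor over untreated cells, with SE from edgeR, for the other oscillator genes that were tested and the D-box output factors; filled points passed an adjusted p of 0.05. NR1D1 lies at -1.09 in OCI-LY3 and 0.36 in SU-DHL6, NFIL3 is below 0 in both lines, and HLF has no point for SU-DHL6.

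Of 17 genes for kinases, phosphatases and ubiquitin-pathway proteins that act on clock proteins, 15 were tested. In OCI-LY3, 2 rose and 4 fell, and in SU-DHL6, 3 rose and 6 fell, against 44.4% and 43.2% of all genes called, with medians of -0.22 and -0.20. CSNK2A2, a catalytic subunit of casein kinase 2, fell in both lines, by 0.71 ± 0.08 in OCI-LY3 and 0.54 ± 0.08 in SU-DHL6 (SE, edgeR adjusted p = 8.1e-06 and 0.000110). CSNK1E, which encodes the PER kinase casein kinase 1 epsilon and shares sequence with a read-through gene, was at 23.9 ± 2.58 CPM in treated and 40.7 ± 5.61 CPM in untreated SU-DHL6 (SD, n = 3 each), a fall of 0.77 ± 0.11 (edgeR adjusted p = 8.6e-05). BTRC, a ubiquitin ligase subunit that binds phosphorylated PER proteins, rose in OCI-LY3 by 0.76 ± 0.16 (edgeR adjusted p = 0.00143). Its paralogue FBXW11 rose in OCI-LY3 by 0.42 ± 0.09 and was at -0.38 ± 0.09 in SU-DHL6 (edgeR adjusted p = 0.00165 and 0.00389), a fall that was lost with total counts. The phosphatase subunit gene PPP1CB (-0.70 ± 0.11, edgeR adjusted p = 0.000158) and the deubiquitinase gene USP2 (-2.28 ± 0.46, 0.00114) fell in OCI-LY3, and the phosphatase subunit gene PPP1CA fell in SU-DHL6 (-0.88 ± 0.17, 0.000935). Among those that rose in SU-DHL6 were the casein kinase 1 gene CSNK1A1 (0.47 ± 0.17, edgeR adjusted p = 0.0364) and PRKAA1, a subunit of AMP-activated protein kinase (0.35 ± 0.13, 0.0395). Those calls were lost in 4 and 9 of 20 alternative settings. PPP1CA overlaps RAD9A and TBC1D10C on the opposite strand. In SU-DHL6 RAD9A also fell (-1.05 ± 0.13, edgeR adjusted p = 2.6e-05), and TBC1D10C had no call (0.11 ± 0.12, 0.503). CSNK1A1 overlaps AC021078.1, at a mean of 31.7 CPM, which had no call in SU-DHL6 (0.53 ± 0.40, edgeR adjusted p = 0.314).

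Of 17 chromatin and RNA-binding cofactors of the clock, 7 fell and 0 rose in OCI-LY3, while 7 rose and 2 fell in SU-DHL6, with medians of -0.17 and 0.24. Of all genes, 22.2% rose and 22.2% fell in OCI-LY3, and 20.4% rose and 22.8% fell in SU-DHL6, and no test of the list was made. The histone methyltransferase genes EZH2 (-1.12 ± 0.11 in OCI-LY3 and -1.19 ± 0.11 in SU-DHL6, edgeR adjusted p = 1.3e-06 and 9.0e-07) and SUV39H1 (-1.48 ± 0.21 and -1.97 ± 0.21, 6.7e-05 and 5.6e-06) fell in both lines. WDR5, a subunit of histone methyltransferase complexes, fell in OCI-LY3 by 0.75 ± 0.11 (edgeR adjusted p = 7.3e-05). KDM5A, a histone demethylase gene and CLOCK-ARNTL cofactor, rose in SU-DHL6 by 0.86 ± 0.11 (edgeR adjusted p = 3.2e-05), as did KMT2A by 0.75 ± 0.11 (0.000124) and the acetyltransferase gene EP300 by 0.72 ± 0.13 (0.000528). In OCI-LY3 the log2 fold changes were 0.17 for KDM5A, -0.28 for KMT2A and -0.15 for EP300, with no call, although KMT2A passed in 5 of 20 alternative settings. KDM5A overlaps CCDC77, and DBP overlaps SPHK2, on the opposite strand, so their counts carry the same limit on strand as NR1D2.

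The genes whose levels across the 12 libraries were most like those of BHLHE40 were CENPF, HK2, SGO2, SMC4 and EPRS. Likeness was the root mean square difference of log2 CPM after each gene was centred on its own mean. These 5 of 8787 genes, whose log2 CPM averaged 3 or more, were at 0.37 to 0.50. The median was 1.15 over all other genes at that level, with pseudogenes and clone-based names still included. CENPF, a kinetochore-associated gene, averaged 17.1 ± 1.21 CPM in treated and 86.2 ± 5.37 CPM in untreated OCI-LY3, and 66.6 ± 18.0 CPM in treated and 52.2 ± 14.2 CPM in untreated SU-DHL6 (SD, n = 3 each). HK2, a hexokinase gene, averaged 45.01 ± 1.56 CPM in treated and 185 ± 0.97 CPM in untreated OCI-LY3, and 112 ± 7.87 CPM in treated and 72.1 ± 2.53 CPM in untreated SU-DHL6. In each of the 5 the log2 fold change was more negative than -1.5 in OCI-LY3 and between 0.12 and 0.86 in SU-DHL6. They were chosen by this likeness, so no test is given.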

How the data were processed

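Read counts and FPKM values of 58302 human genes were deposited by the authors in 1 table, per the file headers, with a column of each for every library. No source used here gives the aligner or the counting program. Mouse builds (GRCm38, mm10) stand in the submitters' processing notes, but 58039 of the identifiers were found in GENCODE release 29 on GRCh38, 97.6% of them with identical coordinates, and all 10 clock genes were among these.

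The model for counts was edgeR 4.0.16 (R 4.3.3): filterByExpr by group (16474 genes kept), TMM factors, 1 model over all 12 libraries with a coefficient per group, the robust quasi-likelihood F test, and Benjamini-Hochberg adjustment over all tested genes, with calls at an adjusted p under 0.05. SE was derived as the absolute log2 fold change over the root of F. Deposited FPKM values were used to compare genes and, for BHLHE40, as a second scale beside CPM. No fold change is given where a group held 3 or fewer counts, a rule set after the values were seen. The model was tested on simulated data, where 2-fold changes were called less often than 4-fold ones; the pass mark was lowered to leave the 2-fold changes out after that result. Alternatives were other size factors, total counts, DESeq2 1.42.0, limma-voom (limma 3.58.1), other filters, a fit per line, a replicate block, and the omission of single libraries.

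The clock genes and lists were chosen with earlier results of these data known. All clock genes are named. From each further list the rule took up to 3 called genes per direction and line with the smallest adjusted p, and some items are not reported here. The 5 genes nearest BHLHE40 exclude pseudogenes and clone-based names.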

Additional observations from a re-analysis of the deposited data

Results flagged for a closer look

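Of the clock genes and the further list genes named in the report, those whose responses differ between the lines, by the edgeR quasi-likelihood test of the difference (OCI-LY3 minus SU-DHL6, Benjamini-Hochberg adjusted over all genes), are listed here. BHLHE40 differed by -3.57 on the log2 scale, with every treated library below the untreated ones in OCI-LY3 and above them in SU-DHL6, and this difference was not tested since it chose the set. Among the other clock genes, PER2 differed by -1.18, PER3 by -2.08 and CLOCK by -1.04. The CLOCK value was lost in 10 of 19 alternative settings. NR1D1 differed by -1.45, RORA by -1.77, TIMELESS by 0.51, DBP by 0.69 and NFIL3 by -0.77, of which the TIMELESS value was lost with total counts (0.13, edgeR adjusted p = 0.497), the DBP value in 10, the NFIL3 value in 8 and the RORA value in 2 of 19 alternative settings. Among genes acting on clock proteins, CSNK1E differed by 1.03, BTRC by 0.96, FBXW11 by 0.80, PPP1CB by -0.73 and CSNK1A1 by -0.76. The CSNK1A1 value was lost in 4 of 19 settings and the BTRC value in 1. Among cofactors, KMT2A differed by -1.03, EP300 by -0.87, KDM5A by -0.69 and WDR5 by -0.50, the last of which was lost in 1 setting. With total counts the median difference over all genes was -0.35, against 0.02 with TMM factors, so the size of each value depends on the scaling.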

How the results depend on the processing

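Among the clock genes, calls that held under every setting tried were those of PER2 and PER3 in OCI-LY3, of NR1D2 in both lines, of the PER2 and PER3 differences of responses, and of the untreated line differences of PER1, PER2, PER3, CRY2 and CLOCK (20 alternatives per response, 19 per difference). The count of clock genes called in SU-DHL6, 1 with BHLHE40 not counted, became 4 with total counts and 2 with SU-DHL6 fitted alone, and was 1 to 2 when libraries were left out. Signs turned only for values with no call. With total counts, the SU-DHL6 values of PER2, DBP and TMEM165 became 0.21, 0.0797 and 0.144, and the CRY2 difference -0.37. The CRY2 difference was -0.0069 with no low-count filter, -0.0013 with the filter of 1 CPM in 3 libraries, and -0.041 to 0.089 when libraries were left out. Omitting libraries gave -0.197 to 0.091 for the PER1 difference, -0.206 to 0.093 for the NR1D2 difference and -0.171 to 0.127 for the NR1D2 untreated line difference. TEF in SU-DHL6 ran from -0.041 to 0.176. E-box letters were found in 4 windows with CACGTG and 6 with either form. Deviations of same-numbered libraries from their group means correlated at -0.12 to 0.05 (treated with untreated in each line, and the untreated lines with each other). With 3 libraries per group, this cannot show whether same-numbered cultures were set up together. With the replicate block, 6867 genes were called in OCI-LY3 and 6699 in SU-DHL6, against 7321 and 7123 without it, and of the clock genes it moved the CLOCK difference alone above the threshold (-1.05, edgeR adjusted p = 0.0596). Low counts limit the precision for BHLHE41, for PER3 in OCI-LY3 and for ARNTL.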
